A study of Danio rerio with 18 samples.

Results

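The ATF4 arm of the integrated stress response was followed through 9 zebrafish genes: the transcription factor genes atf4a, atf4b, atf5a and atf5b, the stress effectors chac1, trib3 and ddit3, and the amino acid synthesis enzymes asns and psat1. Transcripts were assigned to a gene when their deposited symbol, without its transcript suffix, equalled the gene's symbol, and their counts were summed per gene identifier. This gave 9 genes of 32520 in the table, and 9 of 9 passed the filter on low counts, which kept 21046 genes for testing. The libraries came from whole AB (wild type) larvae at 120 hours post fertilisation, with 3 libraries in each of 6 groups. They were an unexposed control group and groups exposed to perfluorobutanesulfonic acid (PFBS), a short-chain perfluorinated surfactant, at 7, 70, 700, 3500 or 7000 µM. The study set out to ask whether PFBS harms the developing nervous system through mechanisms like those of perfluorooctanesulfonic acid, its longer-chain relative. All groups were of the same strain, stage and tissue, and the labels name no agent other than PFBS. They do not say whether the libraries of a group came from separate clutches or pools, and a p-value therefore refers to the scatter of these libraries, which may be technical.

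In the integrated stress response, kinases that sense amino acid shortage, unfolded proteins in the endoplasmic reticulum, mitochondrial faults or viral RNA phosphorylate the translation initiation factor eIF2. General protein synthesis then slows, while messages with suitable upstream reading frames, those of ATF4 and ATF5 among them, are translated more. ATF4 is a basic leucine zipper transcription factor that, in mammals, switches on genes for amino acid uptake and synthesis, glutathione turnover and, when stress lasts, cell death. RNA counts measure neither eIF2 phosphorylation nor the translation of these factors, only the level of their messages and those of known targets. In whole larvae, moreover, fewer cells of a type and less RNA per cell cannot be told apart.

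Depth was similar across the series, with total counts of 14937147 to 19267232 per library. TMM factors, which scale libraries by composition, were 0.8933 to 0.9624 at 3500 µM and 0.9687 to 1.073 in the other groups. In the libraries of a group the chi-square per degree of freedom of any pair was 5.79 to 66.1, so none was taken for a repeat of another. Markers of several tissues differed from controls, and not all of them followed concentration. Summed skeletal muscle markers held 32740 to 92180 CPM (counts scaled to library size and composition) at 7000 µM, lowest in replicate 3, against 142700 to 149100 CPM in controls, and 16 of 20 were lower. At 3500 µM they held 139000 to 170400 CPM, and 0 of 20 were called. They held 90430 to 150300 CPM at 70 µM and 96920 to 119800 CPM at 700 µM, with none called. Epidermis and notochord markers held 2466 to 8027 CPM at 7000 µM, against 14450 to 17800 CPM in controls, with 15 of 18 lower, while at 3500 µM they held 12230 to 13540 CPM and 0 of 18 were called. They held 7110 to 14010 CPM at 70 µM and 5414 to 11090 CPM at 700 µM, with 0 and 2 of 18 lower. Liver markers held 393.3 to 576.3 CPM at 3500 µM, against 579.1 to 1141 CPM in controls, with 12 of 17 lower, and 6 of 17 were lower at 7000 µM. Photoreceptor markers held 16280 to 23950 CPM at 7000 µM, against 11320 to 11960 CPM in controls, with 12 of 12 higher, and 5 of 12 were higher at 3500 µM. They held 12440 to 16550 CPM at 70 µM and 15570 to 19460 CPM at 700 µM, with 1 and 6 of 12 higher. Neutrophil and macrophage markers held 33.66 to 47.52 CPM at 700 µM, 48.75 to 53.03 CPM at 3500 µM and 35.48 to 54.53 CPM at 7000 µM, against 65.51 to 92.13 CPM in controls, with 6, 5 and 7 of 12 lower in that order. Intestine markers held 682 to 880.9 CPM at 3500 µM, against 455.3 to 560.7 CPM in controls, with 1 of 9 tested higher. They held 663.5 to 929.8 CPM at 7 µM, 667.6 to 918.2 CPM at 700 µM and 485.8 to 598.9 CPM at 7000 µM. Neuron markers held 3926 to 4463 CPM at 7000 µM, against 3373 to 3883 CPM in controls, with 3 of 12 higher and 1 lower. At 3500 µM they held 3543 to 3835 CPM. No listed marker of muscle, liver, epidermis and notochord, photoreceptors, or neutrophils and macrophages was at 0 in any library. Over all genes tested, 1.27% were higher and 1.93% lower at 700 µM. At 3500 µM these shares were 5.14% and 4.33%, and at 7000 µM 12.7% and 12.3%. The part of these tissue differences in the results below was not tested.

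The genes lie on separate chromosomes except for 2 pairs, in the coordinates of the deposited table, whose genome build is not given in the sources used here. On the forward strand were atf4a (chromosome 6, 269204 to 272554), ddit3 (chromosome 6, 58915889 to 58919086), atf4b (chromosome 3, 24197934 to 24200819) and chac1 (chromosome 20, 28266892 to 28269462). On the reverse strand were atf5a (chromosome 5, 30414250 to 30418636), psat1 (chromosome 5, 69486184 to 69499595), atf5b (chromosome 15, 17862207 to 17870090), trib3 (chromosome 11, 24058530 to 24063196) and asns (chromosome 19, 25656812 to 25678002). The table lists 3 transcripts of atf5b, 2 each of chac1 and psat1, and 1 of each other member. Only chac1 and atf5b overlapped another annotated gene. The ino80 gene, on the opposite strand of chac1, had a mean of 411.5 counts, against 4885.8 for chac1. Strand use in the counting is not given in the sources used here, so reads of these neighbours cannot be told apart. The gene BX901923.1, on the same strand as atf5b, had a mean of 2.3 counts.

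Per transcript length, the messages of the ATF4 factors and of chac1 were the most abundant members in control larvae. On the TPM scale (transcript levels scaled for length and depth, as the authors deposited them), atf4a averaged 253 ± 16.5 TPM, atf4b 201 ± 7.41 TPM and chac1 188 ± 10.5 TPM in controls (SD, n = 3). They were followed by ddit3 at 47.1 ± 4.66 TPM, atf5a at 40.9 ± 1.15 TPM and atf5b at 32.3 ± 3.45 TPM. The lowest were trib3 at 23.2 ± 0.858 TPM, psat1 at 20.7 ± 0.666 TPM and asns at 4.14 ± 0.785 TPM. Among neighbours in this order, the control libraries of atf4b and chac1 overlapped, as did those of ddit3 and atf5a. At 3500 µM the order at the top differed, with chac1 at 306 ± 45.3 TPM, atf4a at 281 ± 16.7 TPM and atf4b at 212 ± 35 TPM, and the ranges of chac1 and atf4a overlapped.

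**Figure D1:**
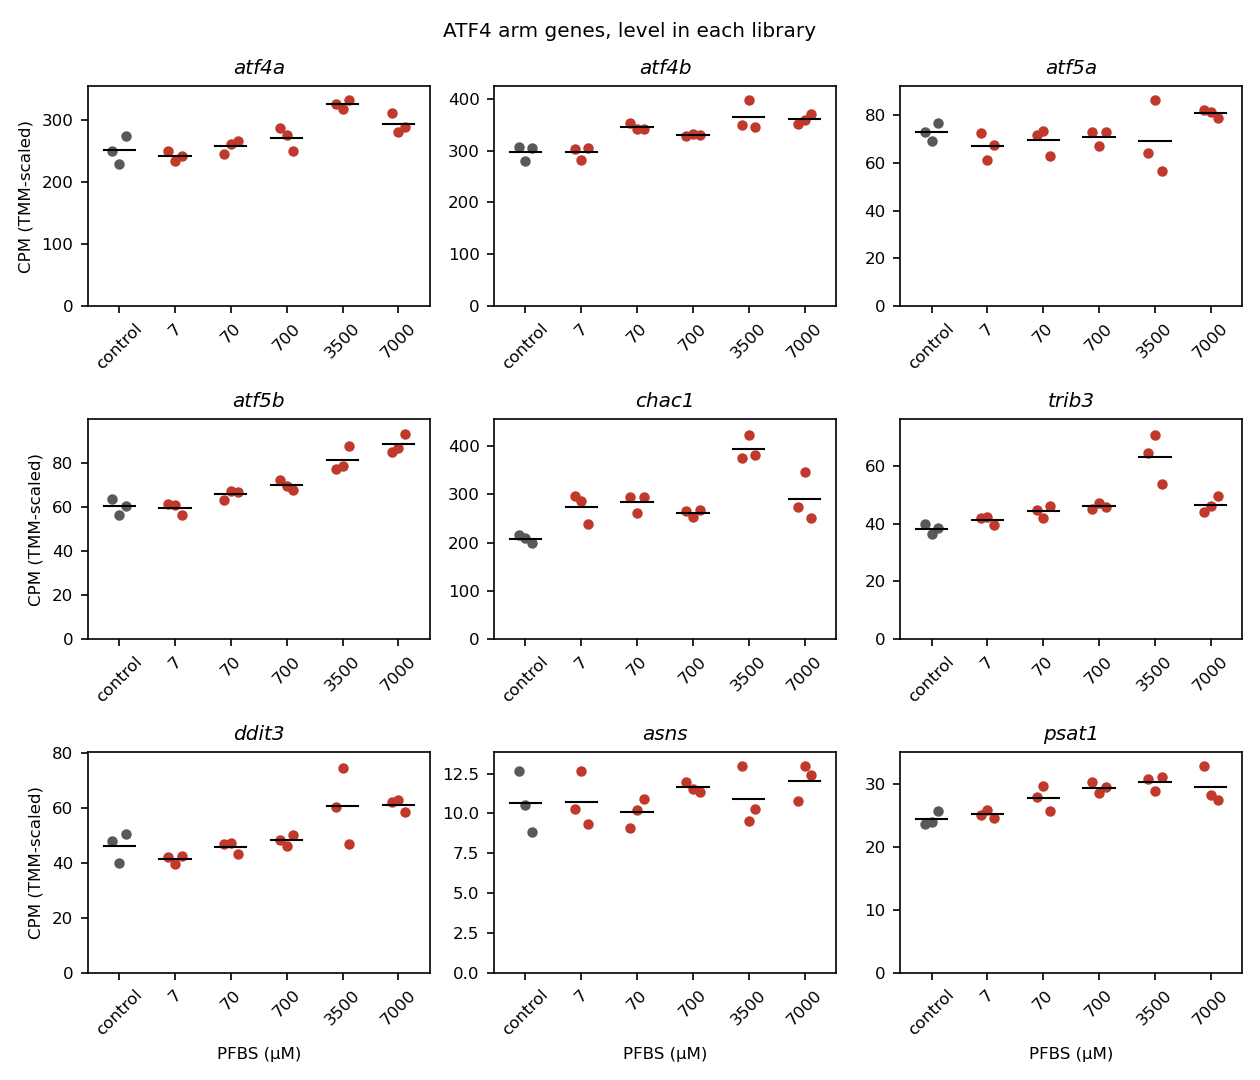
Level of each of the 9 genes, in TMM-scaled CPM, in every library, by PFBS concentration in µM. Points are libraries (3 per group, controls in grey), bars are group means and every axis starts at 0. For chac1 and trib3 the 3500 µM group stands highest, whereas atf5b climbs across the groups to 84.9 to 93.1 CPM at 7000 µM, against 56.3 to 63.7 CPM in controls.

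Of these genes 7 had a rising slope over the order of the groups, though chac1 and trib3 were lower at 7000 than at 3500 µM. At 7, 70 and 700 µM the members' median log2 change was -0.003, 0.128 and 0.149. The largest there was that of chac1, at 0.39, 0.44 and 0.33. By edgeR's quasi-likelihood test with Benjamini-Hochberg adjustment over all genes (two-sided, threshold 0.05), 6 of 9 members were higher at 3500 µM than in controls and none lower, where 5.14% of all genes tested were higher and 4.33% lower. At 7000 µM 6 of 9 were also higher and none lower, where 12.7% of all genes were higher and 12.3% lower. The members' median log2 fold change was 0.37 at 3500 µM, with 0.01 over all genes, and 0.28 at 7000 µM, with -0.01 over all genes. Along the order of the 6 groups, 7 of 9 members rose and none fell, where 18.6% of all genes rose and 18.9% fell. The exceptions were atf5a and asns. Between neighbouring concentrations 2 of 9, chac1 and trib3, were higher at 3500 than at 700 µM, where 1.14% of all genes were higher, and the same 2 were lower at 7000 than at 3500 µM, where 3.84% of all genes were lower. At 7, 70 and 700 µM edgeR called 0 of 9 members, where 0.0333%, 0.28% and 3.2% of all genes were called. At an unadjusted p under 0.05 the count was 1 of 9 at 7 µM, 4 of 9 at 70 µM and 4 of 9 at 700 µM. Of all 21046 genes tested, 1057, 2882 and 4429 were under it in the same order. DESeq2 called 0, 1 and 0 members, where it called 42, 211 and 1077 of all genes. In the authors' deposited table chac1 was past a q-value of 0.05 at 70 and at 700 µM. Members whose 3 exposed libraries all lay above all 3 controls in TMM-scaled CPM numbered 1, 3, 5, 6 and 8 of 9 as the concentration went up. Over all genes tested that was so for 7.18%, 9.27%, 15.1%, 16.2% and 20.6% in the same order. The members were chosen with earlier results of these data known, so these counts are a description. The 5 comparisons with controls share the control libraries. Without control replicate 1 the number of members higher was 3 at 3500 µM and 3 at 7000 µM, and without control replicate 2 it was 3 and 2. Without replicate 1 of the 3500 µM group it was 3 at 3500 µM, and with libraries scaled to total counts alone it was also 3 there. Calls over all genes, in either direction, also moved when 1 library was left out. They ranged from 478 to 3333 at 3500 µM (1994 with all libraries) and from 2362 to 5701 at 7000 µM (5259 with all libraries).

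**Figure D2:**
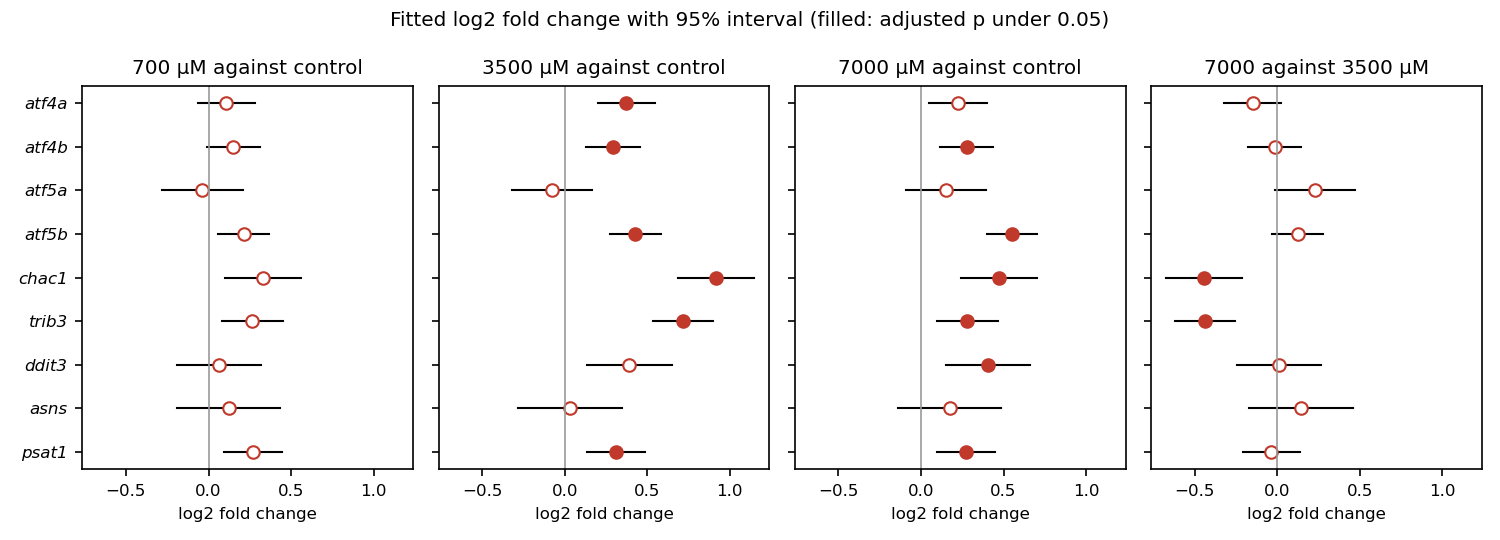
Fitted log2 fold change of each gene with its 95% interval in 4 comparisons, filled where the adjusted p was under 0.05. At 3500 µM chac1 and trib3 lie farthest to the right, and in the last panel, 7000 against 3500 µM, those same genes are the filled points, both below 0.

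Among the effectors, chac1 responded most at 3500 µM. Its product, a gamma-glutamyl cyclotransferase, breaks down glutathione inside the cell, and in mammals the gene is a target of ATF4. Its level was 375.4, 422.6 and 382.3 CPM at 3500 µM, against 216.5, 208.7 and 200.2 CPM in controls. In CPM every library at 3500 µM lay above every control and above every other exposed library. The log2 fold change was 0.92 ± 0.11 (SE; adjusted p = 0.000137), a rise of 88.7%. In deposited TPM values chac1 ranged from 279 to 358 at 3500 µM, above the controls at 176 to 196. That range overlapped those at 7000 µM, 222 to 304 TPM, and at 70 µM, 249 to 281 TPM. At 7000 µM the libraries held 273.1, 345.5 and 250.0 CPM, all above controls and all below those at 3500 µM, with a log2 fold change over controls of 0.47 ± 0.11 (adjusted p = 0.00597). The difference between the 2 highest concentrations was itself called, at -0.44 ± 0.11 for 7000 against 3500 µM (adjusted p = 0.0254). It was no longer called without replicate 1 or 2 of the 3500 µM group, at -0.46 (adjusted p = 0.0679) and -0.39 (adjusted p = 0.069), or without replicate 1 or 3 of the 7000 µM group, at -0.38 (adjusted p = 0.0816) and -0.35 (adjusted p = 0.139).

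At the lower concentrations chac1 was also above controls in every library, and whether it passed a test there depended on the method. It held 297.1, 286.6 and 237.6 CPM at 7 µM, 294.5, 261.9 and 294.2 CPM at 70 µM and 265.8, 253.0 and 267.3 CPM at 700 µM. The lowest of these values, 237.6 CPM, lay above the highest control value of 216.5 CPM. The log2 fold changes against controls were 0.39 ± 0.11 at 7 µM (adjusted p = 0.426), 0.44 ± 0.11 at 70 µM (adjusted p = 0.109) and 0.33 ± 0.11 at 700 µM (adjusted p = 0.103), none called by edgeR. DESeq2 called chac1 at 70 µM, at 0.44 (adjusted p = 0.0218), and not at 700 µM (adjusted p = 0.0748). An edgeR fit of only the 700 µM and control libraries called chac1, at 0.31 (adjusted p = 0.0228). The authors' deposited table gave the coding transcript chac1-201 a log2 fold change of 0.39 at 7 µM, with a q-value of 0.054, of 0.42 at 70 µM, with a q-value of 0.000842, and of 0.32 at 700 µM, with a q-value of 3.37e-05. That table lists 181 of 59876 transcripts with a q-value under 0.05 at 70 µM and 1048 at 700 µM. In the edgeR fit of transcripts, chac1-201 was at 0.43 at 70 µM (adjusted p = 0.301) and 0.32 at 700 µM (adjusted p = 0.217). The step between the 3500 and 700 µM groups was called, at 0.59 ± 0.11 (adjusted p = 0.0206). That call was lost without any single library of the 700 µM group, at 0.60 without replicate 1 (adjusted p = 0.0865), 0.56 without replicate 2 (adjusted p = 0.0749) and 0.60 without replicate 3 (adjusted p = 0.0666). At 70 µM chac1 was called without replicate 3 of the 7000 µM group, at 0.44 (adjusted p = 0.0451), and just under the threshold without replicate 2 of it, at 0.44.

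The pattern of trib3 was similar. Trib3 is a pseudokinase of the Tribbles family that, in mammals, is induced by ATF4 and CHOP and restrains their activity. Its level was 64.2, 70.7 and 53.8 CPM at 3500 µM, against 39.8, 36.5 and 38.6 CPM in controls, with no overlap between the groups. The log2 fold change was 0.72 ± 0.09 (adjusted p = 0.000139), a rise of 64.2%. At 7000 µM it held 43.8, 46.1 and 49.4 CPM, all above controls and all below the 3500 µM libraries. The rise over controls was 0.28 ± 0.09 at 7000 µM (adjusted p = 0.028), and the difference of 7000 against 3500 µM was -0.44 ± 0.09 (adjusted p = 0.00873). Between 3500 and 700 µM the log2 difference was 0.45 ± 0.09 (adjusted p = 0.0217). At 7, 70 and 700 µM the means were 41.2 ± 1.42, 44.2 ± 2.18 and 46.0 ± 1.14 CPM (SD, n = 3), and the libraries at 70 and 700 µM lay above every control. In deposited TPM values trib3 ranged from 26.4 to 40.2 at 3500 µM, above the controls at 22.6 to 24.2. That range overlapped those at 70, 700 and 7000 µM, which were 26.1 to 29, 27.2 to 27.9 and 24.6 to 30 TPM.

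For trib3, too, single libraries decided the smaller differences. The rise at 7000 µM was not called without replicate 1, 2 or 3 of the controls, at 0.31, 0.25 and 0.29 (adjusted p = 0.0567, 0.103 and 0.0504), or without replicate 3 of the 7000 µM group, at 0.23 (adjusted p = 0.125). The difference of 7000 against 3500 µM was not called without replicate 1 of the 3500 µM group, at -0.41 (adjusted p = 0.0577). That of 3500 against 700 µM was not called without replicate 1 of the 3500 µM group, at 0.44 (adjusted p = 0.098), or without replicate 1, 2 or 3 of the 700 µM group, at 0.43, 0.47 and 0.45 (adjusted p = 0.1, 0.0658 and 0.067). The calls of chac1 and trib3 at 3500 µM against controls held without any 1 of the 18 libraries, at 0.86 to 0.95 and 0.63 to 0.80.

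Scaling mattered for the difference between the 2 highest concentrations. When libraries were scaled to total counts alone, the median gene stood at -0.12 for 3500 µM against controls and at 0.16 for 7000 against 3500 µM on the log2 scale. Under that scaling chac1 was at 0.79 (adjusted p = 0.00109) and trib3 at 0.59 (adjusted p = 0.00334) for 3500 µM against controls. For 7000 against 3500 µM chac1 was at -0.29 (adjusted p = 0.104) and trib3 at -0.28 (adjusted p = 0.0701), neither called. A change of scaling moves all genes by about the same amount, so differences relative to the median gene stay close under either. That closeness does not show which scaling is right, and the calls between these concentrations differed.

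The gene ddit3 encodes CHOP, a C/EBP family factor that acts with and downstream of ATF4 and promotes cell death under lasting endoplasmic reticulum stress. Its libraries at 7000 µM held 62.2, 63.0 and 58.4 CPM, against 48.0, 39.9 and 50.6 CPM in controls, with every exposed library above the controls. The log2 fold change was 0.40 ± 0.12 (adjusted p = 0.0228). At 3500 µM the libraries held 60.4, 74.7 and 46.8 CPM, so that replicate 3 lay within the control range and replicate 2 was the highest of the series. The log2 difference there was 0.39 ± 0.12 (adjusted p = 0.0509), and it was called without replicate 3 of that group, at 0.53 (adjusted p = 0.00914), without control replicate 3, at 0.46 (adjusted p = 0.0489), and without replicate 3 of the 7000 µM group, at 0.39 (adjusted p = 0.0471). The call at 7000 µM was lost without control replicate 1 or 2, at 0.43 (adjusted p = 0.055) and 0.31 (adjusted p = 0.112), or without replicate 1 of the exposed group, at 0.39 (adjusted p = 0.06). At 7, 70 and 700 µM the means were 41.4 ± 1.62, 45.7 ± 2.18 and 48.3 ± 1.99 CPM (SD, n = 3), each group overlapping the controls. The trend over the 6 groups was 0.11 ± 0.02 log2 units per step (adjusted p = 0.000956). The 7000 against 3500 µM difference of ddit3 was 0.01, with a 95% interval from -0.24 to 0.27.

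Among the transcription factors, atf5b showed the steadiest rise on the TMM scale. ATF5 is a close relative of ATF4 that, in mammals, takes part in the response to mitochondrial protein stress. The mean level of atf5b was 60.2 ± 3.69 CPM in controls (SD, n = 3 in each group). At 7, 70 and 700 µM it was 59.6 ± 2.73, 65.8 ± 2.17 and 69.8 ± 2.36 CPM, and at 3500 and 7000 µM it was 81.0 ± 5.67 and 88.2 ± 4.29 CPM. By library it was 84.9, 86.7 and 93.1 CPM at 7000 µM and 77.1, 78.4 and 87.5 CPM at 3500 µM, against 63.7, 56.3 and 60.6 CPM in controls. From 700 µM upward no exposed library overlapped the controls. The trend was 0.12 ± 0.01 log2 units per step (adjusted p = 8.42e-06), the smallest adjusted p among the 9 members. The log2 fold change was 0.43 ± 0.07 at 3500 µM (adjusted p = 0.00246) and 0.55 ± 0.07 at 7000 µM (adjusted p = 0.000143), and both were called without any 1 of the 18 libraries. The difference of 7000 against 3500 µM was 0.12 ± 0.07 (adjusted p = 0.33), and with libraries scaled to total counts alone it was 0.29 (adjusted p = 0.0308). Under that scaling atf5b was at 0.30 for 3500 µM against controls (adjusted p = 0.0312) and at 0.07 for 3500 against 700 µM (adjusted p = 0.618). In deposited TPM values atf5b averaged 38.6 ± 2.14 at 700 µM, 34.8 ± 4.41 at 3500 µM and 46.8 ± 3.06 at 7000 µM. Its range at 3500 µM, 29.7 to 37.7 TPM, overlapped that of controls, 28.3 to 34.7 TPM.

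Its paralog atf5a had no called change. At 3500 µM its libraries held 64.2, 86.3 and 56.5 CPM, on both sides of the controls at 72.8, 69.0 and 76.7 CPM. At 7000 µM they held 82.3, 81.4 and 78.6 CPM, above every control, with a log2 difference of 0.15 and a 95% interval from -0.09 to 0.39. The log2 difference at 3500 µM was -0.08, with an interval from -0.32 to 0.17. The trend of atf5a was 0.03 ± 0.02 per step (adjusted p = 0.309). Without replicate 2 of the 3500 µM group, the highest of it, atf5a was higher at 7000 than at 3500 µM by 0.42 (adjusted p = 0.0229), whereas with all libraries the difference was 0.23 (adjusted p = 0.25).

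The difference between the ATF5 paralogs was tested as the slope of the log2 ratio of their CPM over the order of the groups. For atf5a over atf5b it was -0.09 per step (two-sided permutation test over 18 libraries, 100000 resamples, p = 0.00078, adjusted over 2 pairs p = 0.00156). The mean log2 ratio was 0.27 ± 0.08 in controls (SD, n = 3 in each group). At 7, 70 and 700 µM it was 0.17 ± 0.14, 0.07 ± 0.14 and 0.02 ± 0.08, and at the 2 highest concentrations it was -0.25 ± 0.38 (3500 µM) and -0.12 ± 0.10 (7000 µM). The CPM of atf5a was thus above that of atf5b in all 3 control libraries and below it in all 3 libraries at 7000 µM. The libraries at 3500 µM spread widely, from -0.63 to 0.14. Left-out libraries moved the slope between -0.10 and -0.08.

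**Figure D3:**
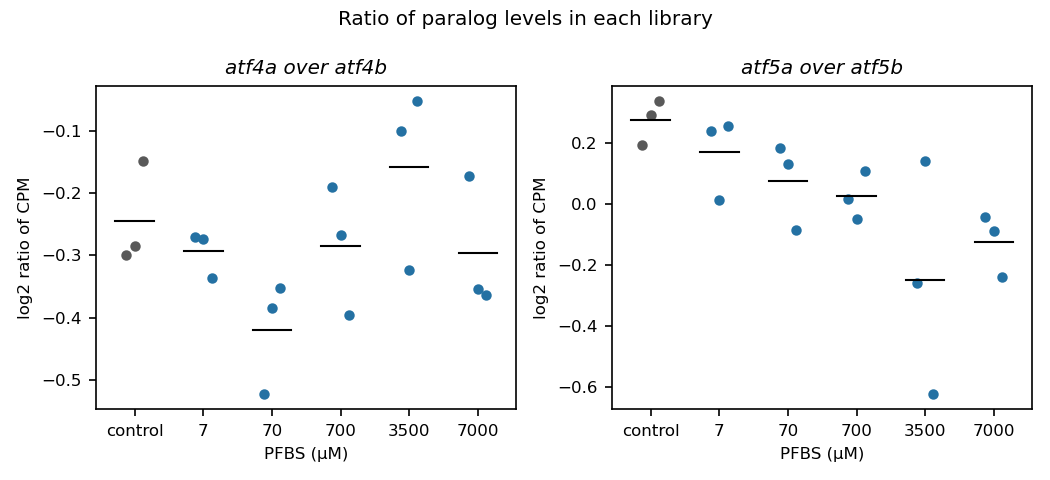
Log2 ratio of CPM of atf4a over atf4b (left) and of atf5a over atf5b (right) in every library, by PFBS concentration in µM; points are libraries and bars are group means. The ratio of the ATF5 paralogs is positive in the 3 controls and negative in the 3 libraries at 7000 µM. The ratio of the ATF4 paralogs shows no slope beyond its spread, though at 70 µM it lies below the 3 controls.

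The ATF4 paralogs themselves rose by similar, small amounts at the 2 highest concentrations. The level of atf4a was 325.9, 318.3 and 333.4 CPM at 3500 µM, against 250, 229.8 and 275.5 CPM in controls, with no overlap. The log2 fold change was 0.37 ± 0.08 (adjusted p = 0.0119). At 7000 µM it held 311.9, 281.5 and 288.7 CPM, above every control, and the log2 difference of 0.22 ± 0.08 did not pass the threshold (adjusted p = 0.0544). For atf4b the libraries held 349.3, 398.7 and 345.7 CPM at 3500 µM and 351.4, 359.8 and 371.4 CPM at 7000 µM, against 307.8, 280 and 305.4 CPM in controls. In CPM both exposed groups lay wholly above the controls. The rise was 0.29 ± 0.08 at 3500 µM (adjusted p = 0.0261) and 0.28 ± 0.08 at 7000 µM (adjusted p = 0.0149). In deposited TPM values atf4b ranged from 189 to 252 at 3500 µM, overlapping the controls at 194 to 209. At 7000 µM it ranged from 220 to 251 TPM, above the controls. All libraries of atf4b at 70 and 700 µM also lay above the controls, at 341.2 to 352.8 CPM and 328.5 to 331.7 CPM, with log2 differences of 0.21 (adjusted p = 0.244) and 0.15 (adjusted p = 0.275). The trends were 0.07 ± 0.01 per step for atf4a (adjusted p = 0.00113) and 0.06 ± 0.01 for atf4b (adjusted p = 0.00147). The slope of the log2 ratio of atf4a over atf4b was 0.01 per step (permutation test, p = 0.63, adjusted over 2 pairs p = 0.63). That test does not show that the paralogs respond alike, and how reads that match both were counted is not given in the sources used here. At 70 µM the log2 ratio was -0.523 to -0.353, wholly below the controls at -0.3 to -0.149. The log2 difference of atf4a was 0.03 there, against 0.21 for atf4b. The ratio at that concentration alone was not tested.

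The calls of the ATF4 paralogs at single concentrations depended on single libraries, while the trends held without any 1 of the 18. For atf4a at 3500 µM the call was lost without control replicate 1 or 2, at 0.37 and 0.31 (adjusted p = 0.0553 and 0.0666), and without replicate 1 or 3 of the exposed group, at 0.36 and 0.34 (adjusted p = 0.0511 and 0.0626). At 7000 µM atf4a was called without control replicate 3, at 0.30 (adjusted p = 0.0243). For atf4b at 3500 µM it was lost without control replicate 1 or 2, at 0.32 and 0.25 (adjusted p = 0.0685 and 0.114), and without any library of the exposed group, at 0.31, 0.22 and 0.31 for replicates 1, 2 and 3 (adjusted p = 0.0657, 0.0606 and 0.0626). At 7000 µM it was lost without control replicate 2, at 0.24 (adjusted p = 0.0737), and without replicate 3 of the exposed group, at 0.26 (adjusted p = 0.0552). Scaled to total counts alone, atf4a at 3500 µM was at 0.25 (adjusted p = 0.0733) and atf4b at 0.17 (adjusted p = 0.262). At 7000 µM that scaling called both, atf4a at 0.258 (adjusted p = 0.0361) and atf4b at 0.313 (adjusted p = 0.0237).

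Of the amino acid synthesis enzymes psat1 was called and asns was not, and the difference between them was not tested. Psat1, the phosphoserine aminotransferase of serine synthesis and an ATF4 target in mammals, held 30.7, 28.9 and 31.0 CPM at 3500 µM and 32.8, 28.1 and 27.4 CPM at 7000 µM, against 23.6, 23.9 and 25.6 CPM in controls. In CPM no library of these exposed groups overlapped the controls. The rise was 0.31 ± 0.08 at 3500 µM (adjusted p = 0.0296) and 0.27 ± 0.08 at 7000 µM (adjusted p = 0.0243), and the trend was 0.06 ± 0.01 per step (adjusted p = 0.00229). In deposited TPM values psat1 ranged from 21.1 to 23 at 3500 µM, overlapping the controls at 20.1 to 21.4. At 7000 µM it ranged from 23.2 to 25.7 TPM, above the controls. At 700 µM it held 30.2, 28.4 and 29.4 CPM, already above every control, with a log2 difference of 0.27 (adjusted p = 0.0811). Reads of psat1 were divided between 2 protein-coding transcripts in unequal ways, with psat1-201 holding 44 to 139 counts within the controls alone, and no single psat1 transcript was called at 3500 or 7000 µM.

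Asns, the asparagine synthetase and in mammals a widely used readout of ATF4 activity, did not pass the test in any comparison. Its libraries held 13.0, 9.53 and 10.3 CPM at 3500 µM and 10.8, 13.0 and 12.4 CPM at 7000 µM, against 12.7, 10.5 and 8.84 CPM in controls. The exposed libraries and the controls overlapped at every concentration. The log2 difference was 0.03 at 3500 µM, with a 95% interval from -0.29 to 0.35, and 0.17 at 7000 µM, with an interval from -0.14 to 0.49. With 147 to 244 counts per library, asns was the least counted member, and a rise as large as that of psat1 lay within both intervals. The call of psat1 at 3500 µM was lost without control replicate 1 or 2, at 0.29 and 0.30 (adjusted p = 0.119 and 0.0984), without replicate 1 or 3 of the exposed group, at 0.28 and 0.27 (adjusted p = 0.107 and 0.128), and with scaling to total counts alone, at 0.18 (adjusted p = 0.216). At 7000 µM it was lost without control replicate 1 or 2, at 0.25 and 0.26 (adjusted p = 0.0955 and 0.0775), and without replicate 1 of the exposed group, at 0.19 (adjusted p = 0.12). With scaling to total counts alone psat1 was still called at 7000 µM, at 0.305 (adjusted p = 0.0228).

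Besides its protein-coding transcript, chac1 has a transcript annotated as retaining an intron, chac1-202. It had 7, 17 and 10 counts at 7000 µM and 77, 95 and 87 counts at 3500 µM, against 41, 19 and 35 counts in controls. As a share of chac1 counts this was 0.149%, 0.298% and 0.224% at 7000 µM and 1.28%, 1.46% and 1.36% at 3500 µM, against 1.02%, 0.602% and 1.03% in controls. The 3 libraries at 7000 µM were below, and those at 3500 µM above, every control. The lower concentrations overlapped the controls or spread to both sides. At 7 µM the share was 0.528%, 0.435% and 0.713%, and at 700 µM it was 0.327%, 0.803% and 1.00%. At 70 µM it was 0.407%, 0.739% and 1.58%, so that the share in replicate 3 lay above that of every library at 3500 µM. The 82 counts of that replicate lay within the 77 to 95 counts at 3500 µM. In a fit of 31721 transcripts, where 1.78% were called between these concentrations, chac1-202 was lower at 7000 than at 3500 µM, with a log2 difference of -3.00 ± 0.51 (edgeR, adjusted p = 0.015). Against controls the transcript was not called, at 1.53 ± 0.47 for 3500 µM (adjusted p = 0.0848) and -1.47 ± 0.51 for 7000 µM (adjusted p = 0.0664). In the authors' deposited table the log2 fold change of chac1-202 at 3500 µM was 1.57, with a q-value of 0.00205, and at 7000 µM it was -1.42, with a q-value of 0.155. The coding transcript chac1-201 differed by -0.41 ± 0.11 between 7000 and 3500 µM (adjusted p = 0.0676). Reads were shared out between transcripts by a method that is not given in the sources used here, and the opposite-strand gene ino80 overlaps this locus, so the shares are uncertain.

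**Figure D4:**
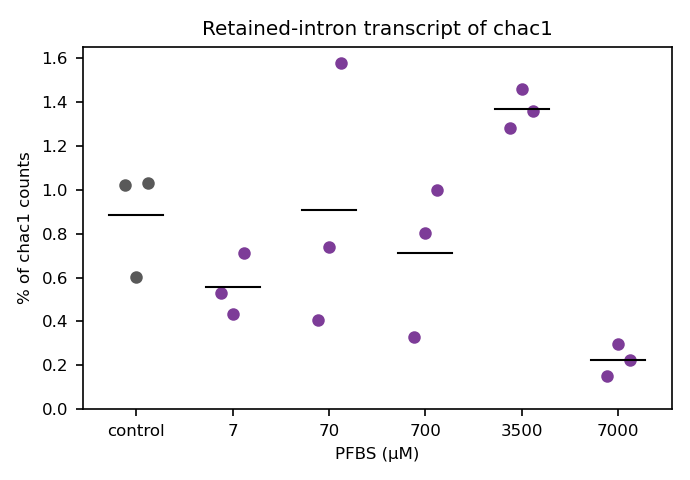
Share of chac1 counts assigned to its retained-intron transcript, in percent, in every library by PFBS concentration in µM, with group means as bars. The 3 libraries at 7000 µM lie at 0.149% to 0.298% and the 3 at 3500 µM at 1.28% to 1.46%, on either side of the controls, while 1 library at 70 µM is highest at 1.58%.

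Of the 3 transcripts of atf5b, the protein-coding atf5b-202 was higher by 0.42 ± 0.07 at 3500 µM (adjusted p = 0.00664) and by 0.54 ± 0.07 at 7000 µM (adjusted p = 0.000644), where 3.28% and 14.2% of all transcripts were called. The authors' deposited table gave atf5b-202 a log2 fold change of 0.45 at 3500 µM, with a q-value of 0.00212, and of 0.59 at 7000 µM, with a q-value of 4.12e-06. For chac1-201 at 3500 µM the authors' deposited table gave 0.93 with a q-value of 9.85e-28, and for trib3-201 it gave 0.73 with a q-value of 1.73e-05. At 7000 µM its q-values were 0.00254 for chac1-201 and 0.0592 for trib3-201. At 3500 and 7000 µM they were 0.0024 and 0.096 for atf4a-201, and 0.0305 and 0.00171 for atf4b-201. For ddit3-201 they were 0.383 and 0.0108, for psat1-201 0.947 and 0.758, and for psat1-202 0.889 and 0.796, in the same order.

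Genes that work with ATF4 or are known mammalian targets of it were counted in lists grouped by function, some of which share genes. The lists were chosen with earlier results of these data known, so the shares below are a description and no independent test. The shares of all genes that rose and fell were 5.14% and 4.33% at 3500 µM, and 12.7% and 12.3% at 7000 µM. Of 20 measured cofactors and stress effectors, 7 rose and none fell at 3500 µM, and 7 rose and none fell at 7000 µM, which is 35% at each, with median log2 changes of 0.30 and 0.23. Stanniocalcin gene stc2a was higher at both, by 0.79 ± 0.11 at 3500 µM (adjusted p = 0.000556) and 0.71 ± 0.11 at 7000 µM (adjusted p = 0.000504). It held 26.8 to 32.9 CPM at 3500 µM and 26.1 to 29.4 CPM at 7000 µM, against 15.2 to 19.9 CPM in controls. The growth arrest gene gadd45aa rose by 1.16 ± 0.19 at 3500 µM and 0.85 ± 0.19 at 7000 µM, and ddit4, an inhibitor of mTORC1, by 0.62 ± 0.14 and 0.55 ± 0.14. The ATF4 partner cebpg rose by 0.25 ± 0.07 at 3500 µM and 0.33 ± 0.07 at 7000 µM. For cebpb the rise of 1.96 ± 0.33 at 3500 µM went with libraries from 22.6 to 94.1 CPM there, against 12.7 to 18 CPM in controls.

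Upstream of ATF4, the genes of eIF2, its kinases, phosphatases and exchange factor rose in shares near those of all genes. Of 18 measured, 1 rose at 3500 µM and none fell, which is 5.56% higher where 5.14% of all genes were. At 7000 µM 3 rose and 1 fell, 16.7% and 5.56%, where 12.7% of all genes rose and 12.3% fell. The gene that rose at both was ppp1r15a, whose product GADD34 directs a phosphatase to eIF2 and so reverses its phosphorylation. It held 92.7 to 99.7 CPM at 7000 µM, against 53.5 to 70.2 CPM in controls, a log2 change of 0.65 ± 0.13 (adjusted p = 0.00202), and at 3500 µM it rose by 0.56 ± 0.13 (adjusted p = 0.0132). The phosphatase catalytic subunit genes ppp1caa and ppp1cab rose at 7000 µM by 0.39 ± 0.10 and 0.34 ± 0.09. The exchange factor subunit gene eif2b5 fell by 0.37 there.

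Amino acid handling was mixed. Of 17 amino acid transporters 3 rose and none fell at 3500 µM, and 6 rose and 1 fell at 7000 µM. The glutamine and neutral amino acid carriers slc38a5a, slc38a3a and slc38a2 rose at 7000 µM by 0.96 ± 0.13, 0.67 ± 0.11 and 0.48 ± 0.10, and the cationic carrier slc7a3a by 0.50 ± 0.09. Of 12 serine, glycine and one-carbon enzymes, none rose and 1, mthfd1l, fell at 3500 µM, whereas 2 rose and 4 fell at 7000 µM. There psph and mthfd2 were higher by 0.36 ± 0.11 and 0.31 ± 0.09, while shmt2 and aldh1l1 were lower, at -0.58 ± 0.16 and -0.44 ± 0.13. Of 16 other amino acid synthesis enzymes, 2 rose and none fell at 3500 µM, and 3 rose and 4 fell at 7000 µM. Glutamine synthetase genes glula and glulb rose at 7000 µM by 0.73 ± 0.11 and 0.34 ± 0.08, and glutamate dehydrogenase genes glud1a and glud1b were lower, at -1.07 ± 0.23 and -0.50 ± 0.12. Of 20 cytosolic aminoacyl-tRNA synthetases, which ATF4 controls in mammals, 1 rose at 3500 µM, and 1 rose and 2 fell at 7000 µM, with medians of 0.11 and -0.03. For comparison, 5.14% of all genes rose and 4.33% fell at 3500 µM, and 12.7% rose and 12.3% fell at 7000 µM.

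Of 17 genes of the mitochondrial stress response, through which ATF4 and ATF5 can be engaged in mammals, 7 rose and none fell at 3500 µM and 7 rose and 1 fell at 7000 µM, with medians of 0.24 and 0.26. The share that rose was 41.2% at each concentration, where 5.14% of all genes rose at 3500 µM and 12.7% at 7000 µM. The import subunit gene timm17a rose by 0.47 ± 0.08 at 3500 µM (adjusted p = 0.00137) and 0.50 ± 0.08 at 7000 µM (adjusted p = 0.000375). The chaperonin genes hspd1 and hspe1 rose by 0.32 ± 0.08 and 0.53 ± 0.11 at 3500 µM and by 0.38 ± 0.08 and 0.50 ± 0.11 at 7000 µM. Of 30 genes of the unfolded protein response of the endoplasmic reticulum, 3 rose and 1 fell at 3500 µM, and 5 rose and 1 fell at 7000 µM, with medians of 0.09 and 0.10. The shares that rose, 10% and 16.7%, lay nearer to those of all genes than the 41.2% of the mitochondrial list did. At each concentration 3.33% fell, where 4.33% of all genes fell at 3500 µM and 12.3% at 7000 µM. Of these 30 genes xbp1, a transcription factor of the response, rose by 0.46 ± 0.08 at 3500 µM and 0.50 ± 0.08 at 7000 µM. The gene herpud1, a factor in protein degradation there, rose by 0.50 ± 0.08 at 7000 µM. The chaperone gene hspa5 rose by 0.31 ± 0.10 at 3500 µM, with an adjusted p of 0.0497.

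In the wider ATF, CREB and C/EBP family, 4 of 20 measured genes rose and 1 fell at 3500 µM, and 4 rose and 2 fell at 7000 µM. That was 20% higher and 5% lower at 3500 µM, where 5.14% and 4.33% of all genes were, and 20% higher and 10% lower at 7000 µM, where 12.7% and 12.3% were. Besides cebpb, jdp2b rose by 1.94 ± 0.37 and cebpd by 0.79 ± 0.15 at 3500 µM, and crema rose by 1.1 ± 0.23 and atf7b by 0.38 ± 0.08 at 7000 µM. The gene atf2 fell at both, with log2 changes of -0.82 ± 0.19 at 3500 µM and -0.76 ± 0.18 at 7000 µM. Of 9 genes of glutathione turnover and Tribbles relatives, 2 rose at 3500 µM, trib1 and trib2, and at 7000 µM trib2 rose by 0.78 ± 0.12 while ggt1b fell, at -1.15 ± 0.27.

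Over the 10 lists together, with each gene counted once, 175 genes were tested. At 700 µM, where 1.27% of all genes rose and 1.93% fell, 6 of them rose and none fell, a share of 3.43%: phgdh, slc3a2b, stc2a, calr, hspd1 and trib2. At 3500 µM 28 rose and 3 fell, or 16% and 1.71%, where 5.14% and 4.33% of all genes did. At 7000 µM 37 rose and 17 fell, or 21.1% and 9.71%, where 12.7% and 12.3% of all genes did. Replicate 3 of the 7000 µM group had the lowest muscle markers. Without it, 9 rose and 2 fell at 700 µM, where 2.29% of all genes rose and 3.81% fell. The genes that fell then were creb3l2 and mthfd1l. At 7000 µM 28 rose and 4 fell without it, or 16% and 2.29%, where 6.3% of all genes rose and 4.78% fell. By list the counts of higher and lower genes at 7000 µM were then 6 and 0 for cofactors and effectors, 6 and 0 for mitochondrial stress, 5 and 0 for transporters, 5 and 0 for the unfolded protein response, and 1 and 0 for eIF2. They were 0 and 0 for serine, glycine and one-carbon enzymes, 2 and 2 for other amino acid synthesis, 0 and 1 for tRNA synthetases, 3 and 0 for the ATF, CREB and C/EBP family, and 1 and 1 for glutathione and Tribbles.

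**Figure D5:**
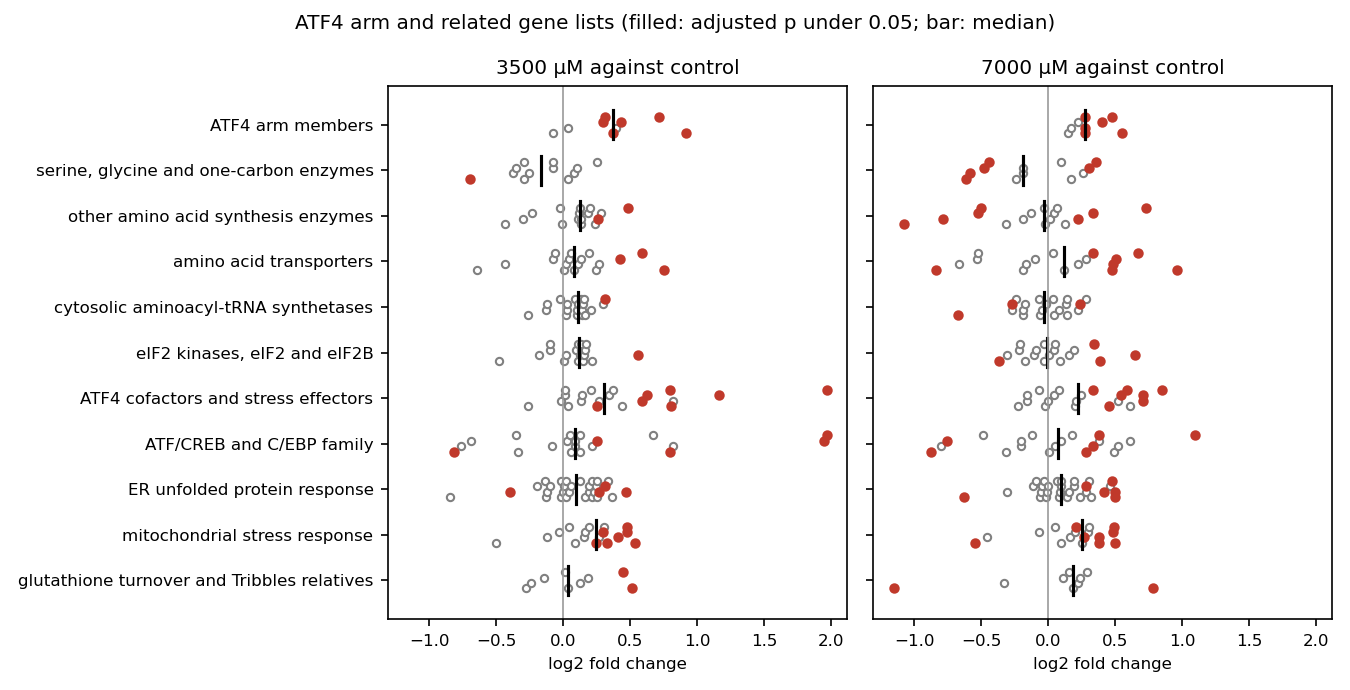
Log2 fold change of every tested gene of the 9 members and of 10 related lists at 3500 µM (left) and 7000 µM (right) against controls, filled where the adjusted p was under 0.05, with a bar at each list's median. The members' median lies at 0.37 and 0.28, and that of the tRNA synthetases at 0.11 and -0.03.

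The genes whose levels across the 18 libraries were most like those of a member were sought for the 4 members with the smallest trend p, among 11959 named genes with at least 5 CPM. Likeness was the root mean square difference of log2 CPM, each gene relative to its control mean. For atf5b the closest were dph7 at 0.078, ube2g1a at 0.082 and mrgbp at 0.084. For trib3 they were tob1b at 0.093, ier5 at 0.106 and ssh2a at 0.109. Those for ddit3 were xbp1 at 0.12, armc5 at 0.139 and cx43 at 0.14. Those for chac1, lipg at 0.147, lpin1 at 0.156 and slc25a43 at 0.174, lay farther off on this measure. It can grow with a member's own spread, which was widest in chac1 (SD 0.299 over the libraries). All these points share the libraries and their scaling, so the likeness is a description. The members themselves were left out of the search.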

How the data were processed

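Whole-body RNA of 18 zebrafish libraries was sequenced. RNAzol served for extraction and a KAPA kit for measuring library amounts, per the labels' protocols. Not given in the sources used here are the aligner, counter, genome build, annotation, vehicle, exposure window and larvae per library. Per the file headers, the deposited table holds a line per transcript (59876 in all) with whole-number read counts and TPM values, which the authors scaled for length and depth. It also holds the authors' log2 fold changes and q-values per concentration, printed only where they are named as the authors' deposited table. The deposited TPM values served to order genes by level and to compare the groups for atf5b, atf4b, psat1, chac1 and trib3.

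Counts were summed per gene and tested with edgeR 4.0.16 (limma 3.58.1, R 4.3.3): filterByExpr by group, TMM scaling, a quasi-likelihood fit of all 18 libraries with a mean per group, and two-sided F tests adjusted by Benjamini-Hochberg over 21046 genes. Libraries of a group varied by 12.9% (the root of the common dispersion, 0.0167). CPM values are TMM-scaled, and the SE comes from the fit. The trend is the linear slope over the order of the 6 groups, per step. Paralog ratios were taken after adding 0.5 to each CPM value. On simulated counts for 7000 µM against controls (20829 genes), the fit called 20 of 50 genes simulated at a log2 change of 0.5, 14 of 50 at -0.5, 49 of 50 at 1 and 44 of 50 at -1, besides 9 unchanged genes. Changes near 0.5 were thus missed more often than found in that simulation. Far fewer genes changed in it than the 5259 called at 7000 µM in the data. The rate therefore does not carry over to the members.

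The members and lists were chosen with earlier results of these data known. From each list, up to 4 called genes with the smallest adjusted p in a comparison are named, and likeness was sought for the 4 members with the smallest trend p. Alternatives were DESeq2 1.42.0 and its size factors, no filter, only the groups compared, a replicate block, protein-coding transcripts only, the transcript level and each library left out. Scaling to total counts alone, and list counts without replicate 3 of the 7000 µM group, were added after seeing the data.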

Additional observations from a re-analysis of the deposited data

How the results depend on the processing

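The members' calls held best in the trend: 7 of 9 rose without any 1 of the 18 libraries and under each alternative that gives a trend, except the transcript level, where psat1 lost its call. Fitting only the groups compared gives no trend. Of 23 member calls over all comparisons, DESeq2 size factors, the DESeq2 test, protein-coding transcripts only and the replicate block each kept 23, no filter 21, scaling to total counts alone 17, the transcript level 16, and only the groups compared 9 of 16. Leaving out 1 library kept 16 to 23. With fits that left out a library, the number of members higher ranged from 0 to 1 at 70 µM, from 3 to 7 at 3500 µM, from 2 to 6 at 7000 µM, from 0 to 3 for 3500 against 700 µM and from 0 to 1 for 7000 against 3500 µM, and the number lower in the last from 0 to 2. All genes called ranged from 2 to 13 at 7 µM (7 with all libraries), 8 to 289 at 70 µM (59), 42 to 1302 at 700 µM (674), 478 to 3333 at 3500 µM (1994), 2362 to 5701 at 7000 µM (5259), 11 to 1469 for 3500 against 700 µM (350) and 287 to 1726 for 7000 against 3500 µM (1321).

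DESeq2 called 42 genes at 7 µM, 211 at 70 µM, 1077 at 700 µM and 881 for 3500 against 700 µM, with 1 member, chac1, higher at 70 µM. Fitting only the groups compared gave 1902 genes at 700 µM with 1 member higher, 1 member higher for 3500 against 700 µM, and 206 genes and 0 members lower for 7000 against 3500 µM. The transcript level gave 0, 18, 74 and 1039 calls at 7, 70, 700 and 3500 µM, 49 calls with 0 members higher for 3500 against 700 µM, and 565 calls with 1 member lower for 7000 against 3500 µM. Scaling to total counts alone gave 3 members higher at 3500 µM, 1118 genes and 1 member higher for 3500 against 700 µM, and 2882 genes with 1 member higher and 0 lower for 7000 against 3500 µM. The cause of these shifts was not tested.

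Replicate numbers are shared between groups, but same-numbered libraries did not deviate together (correlations from -0.295 to 0.224), and 4 of 18 correlated best with their own number. With the replicate block 3, 37 and 441 genes were called at 7, 70 and 700 µM, and 6 members were still higher at 3500 µM and 6 at 7000 µM.

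Signs turned only for differences that were not called. For atf4b at 7000 against 3500 µM (-0.014) they were 0.017 by DESeq2 and by its size factors, 0.001 with no filter, 0 with only the groups compared and 0.144 by total counts. By total counts they were 0.025 for atf4b and 0.012 for atf5b at 7 µM, 0.032 for ddit3 at 70 µM, -0.1 for asns at 3500 µM, -0.107 for psat1 at 3500 against 700 µM, and 0.012 for atf4a and 0.124 for psat1 at 7000 against 3500 µM. At the transcript level psat1 was at -0.154 for 3500 against 700 µM. With a library left out, the values at 7 µM ranged from -0.116 to 0.015 for atf4a, -0.045 to 0.032 for atf4b, -0.06 to 0.027 for atf5b and -0.126 to 0.154 for asns. At 70 µM they ranged from -0.026 to 0.106 for atf4a, -0.108 to 0.057 for ddit3 and -0.201 to 0.062 for asns, and at 700 µM from -0.073 to 0.004 for atf5a and -0.03 to 0.136 for ddit3. At 3500 µM they were -0.269 to 0.03 for atf5a and -0.127 to 0.176 for asns, and for 3500 against 700 µM -0.233 to 0.084 for atf5a. For 7000 against 3500 µM they were -0.035 to 0.055 for atf4b, -0.127 to 0.191 for ddit3 and -0.098 to 0.015 for psat1. Among the members asns had the fewest counts, 147 to 244 per library, and the largest SE at 3500 µM, 0.15. The part of counting error in that SE was not tested.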
